A study of Mus musculus with 6 samples.

Results

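Keratins are the intermediate filament proteins of epithelial cells, and desmosomes are the junctions that tie those filaments together from cell to cell. A keratin filament is built from a type I and a type II chain, so that KRT8 and KRT7 (type II) need a partner such as KRT18 or KRT19 (type I). In a desmosome, cadherins of the desmocollin (DSC) and desmoglein (DSG) families bind the neighbouring cell, plaque proteins such as plakoglobin and the plakophilins sit under the membrane, and desmoplakin (DSP) joins the plaque to the filaments. In the adult mouse ovary simple keratins are known above all from the surface epithelium.

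The 10 genes described here are the keratins Krt7, Krt8, Krt18, Krt19 and Krt79 and the desmosomal genes Dsc2, Dsc3, Dsg2, Dsp and Perp, out of 18193 gene symbols annotated on the array. They were gathered by name with earlier results of these data known, among them the rises of Krt8, Krt18 and Dsc3, so their counts below are a description and no independent evidence of a direction. For each gene the probe set that stands for it was chosen by its mean signal over all 6 arrays, a value that does not use the contrast of the groups. The genes have 21 probe sets with 1 symbol, and all 10 genes passed the filter on dim signals, with 11199 genes tested in all. Dsc3 passed it through the FORKO arrays alone, since its WT mean lay below the filter.

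RNA came from whole ovaries of female mice 8 months old, bred from heterozygotes of the 129T2 svEmsJ background. The 3 WT samples carry the intact gene for the receptor of follicle-stimulating hormone (Fshr), and the 3 FORKO samples are knockouts in which, per the labels, all variants of that receptor are deleted. The labels name no promoter or cell type that restricts the deletion, and the design has a single age. Both ovaries went into each sample, and each sample had its own Affymetrix mouse genome array. The titles and genotypes give the groups, while the free-text description of the FORKO samples speaks of wild-type mice. The labels call the samples biological replicates without saying how many mice each holds, and the p-values therefore rest on the spread between samples, which may be partly technical.

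Per array, the trimmed mean of the deposited signals ran from 80.6 to 98.4. Fshr, the deleted gene, read 99.6, 59.4 and 119 in the WT replicates (1, 2, 3 here and below) and 1.20, 11.2 and 11.7 in those of FORKO, so no FORKO array reached a WT array. FORKO replicate 1 stood apart from the other FORKO arrays: its log2 signals correlated with theirs at 0.954 across probe sets, against 0.970 between replicates 2 and 3. The summed signal of 9 granulosa cell markers was 6172 on that array, against 16848 and 17496 on the other FORKO arrays and 13621 to 18127 in WT. Not all markers of that list shared this pattern. Foxl2 (849) and Amhr2 (2841) read above every WT array there. Fshr, Nr5a2 and Inha were below all WT arrays on each FORKO array. Values without FORKO replicate 1 are therefore given for most genes and lists that read highest on it and are described at length. Signals below are scaled signals (array intensities on a linear scale, with means ± SD over n = 3 arrays). Changes are differences of log2(signal + 5.73), FORKO less WT, a scale that understates changes of dim probe sets. "Rose" means that limma's adjusted p over all 22506 tested probe sets was under 0.05.

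RefSeq promoter windows (build GRCm38.p6) were on hand for 5 of the 10 genes, and those of the keratins are shown because 3 of these 4 keratins rose and Krt8, Krt18 and Krt79 lie close together on chromosome 15. Each line gives the 250 bases before the annotated start, 5′ to 3′ on the strand of the gene. The windows are chr15:102004343-102004592 (minus strand) for Krt8, chr15:102027966-102028215 (plus) for Krt18, chr15:101940325-101940574 (minus) for Krt79 and chr15:101412153-101412402 (plus) for Krt7. Capitals mark matches, searched on both strands, to the E-box CAGGTG, which Snail and Zeb repressors are known to bind. They also mark the GC box GGGCGG, a site of Sp1-type factors.
Krt8: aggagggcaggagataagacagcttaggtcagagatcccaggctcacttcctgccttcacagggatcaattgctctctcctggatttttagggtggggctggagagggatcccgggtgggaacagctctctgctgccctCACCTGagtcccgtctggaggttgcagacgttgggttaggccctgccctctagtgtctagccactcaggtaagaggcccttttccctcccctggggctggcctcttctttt
Krt18: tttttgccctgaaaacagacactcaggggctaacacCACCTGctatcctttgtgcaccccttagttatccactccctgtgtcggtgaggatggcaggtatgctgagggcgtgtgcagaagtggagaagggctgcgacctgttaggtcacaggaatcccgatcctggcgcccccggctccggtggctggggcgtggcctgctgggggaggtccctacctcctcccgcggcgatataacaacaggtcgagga
Krt79: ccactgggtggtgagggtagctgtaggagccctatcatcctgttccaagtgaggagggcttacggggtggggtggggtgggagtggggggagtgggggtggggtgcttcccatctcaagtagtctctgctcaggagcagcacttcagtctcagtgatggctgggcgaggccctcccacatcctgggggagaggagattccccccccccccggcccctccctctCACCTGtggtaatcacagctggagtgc
Krt7: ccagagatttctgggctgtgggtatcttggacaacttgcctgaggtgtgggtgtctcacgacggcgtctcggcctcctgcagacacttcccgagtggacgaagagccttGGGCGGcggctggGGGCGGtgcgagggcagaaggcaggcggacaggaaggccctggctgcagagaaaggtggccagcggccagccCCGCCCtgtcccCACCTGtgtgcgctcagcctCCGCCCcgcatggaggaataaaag
The E-box letters stood once in each of the 4 keratin windows, always on the strand opposite to the printed one, and not in that of Dsp. Of all 32851 promoter windows of this length, 17.2% held them. GC boxes, present in 32.7% of all windows, stood 4 times in the Krt7 window and 4 times in the Dsp window. The TATA box TATAAA (12.4% of all windows), the AP-1 site TGANTCA (6.75%), the grainyhead-like core AACNGGTT (1.79%) and the CCAAT box CCAAT (33.8%) had no match in any of the 5 windows, and no matches overlapped. The motifs and the windows shown were chosen with results of these data known, so these counts beside the shares of all windows are a description only. A match is a run of letters and not a shown site of binding.

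Among the keratins, Krt8, Krt18 and Krt79 rose in FORKO ovaries, and all 5 keratins read higher on each FORKO array than on any WT array. Among the desmosomal genes, Dsc3 rose and the other 4 did not pass. Of the 10 genes, 4 rose and 0 fell by limma's test, where 1.3% of all genes tested rose and 0.839% fell. At limma's unadjusted p under 0.05, 7 of the 10 were higher and 0 lower. The share of all genes at that threshold was not computed, here or for the lists below. The FORKO arrays lay wholly above the WT arrays for 7 of the 10 genes, against 10.7% of all genes. Dsc3, which passed the filter through the FORKO arrays alone, is among the 4 that rose and among both sets of 7. It is also kept among the 10 genes in the counts below. The median log2 change was 1.01 over the 10 genes, 1.07 over the keratins and 0.40 over the desmosomal genes, beside -0.02 over all genes tested. In RNA from a whole organ, more cells of a type and more RNA per cell cannot be told apart.

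**Figure D1:**
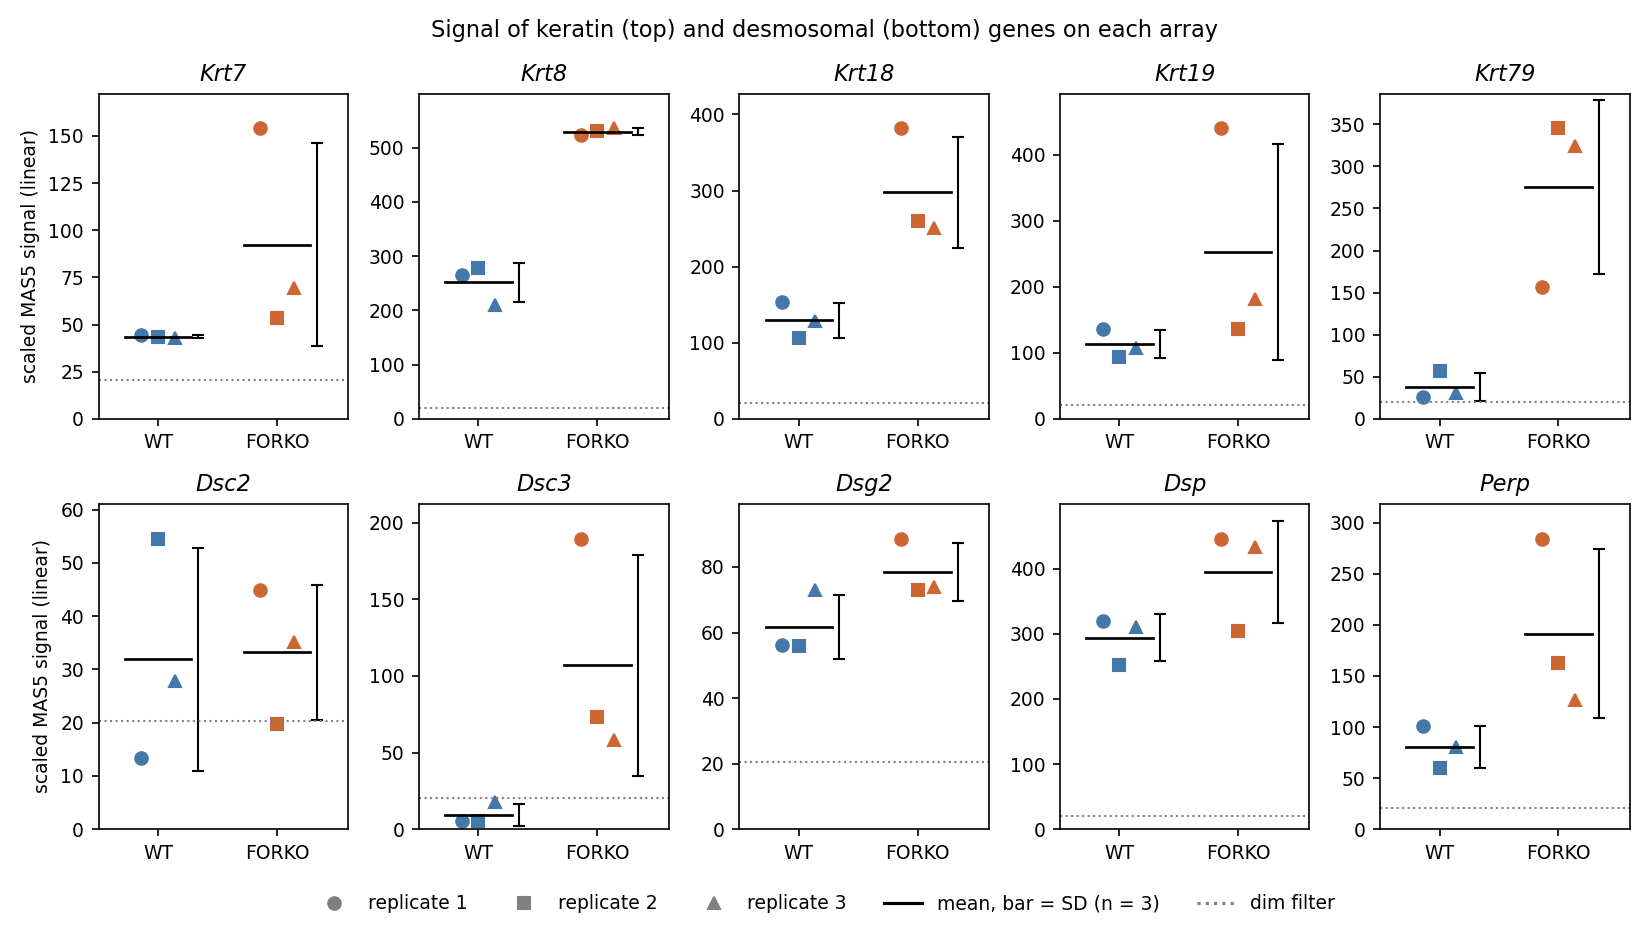
Scaled MAS5 signal (linear axis from 0) of the 5 keratin and 5 desmosomal genes on the 3 WT and 3 FORKO arrays. Symbols mark the replicate, the line is the mean, the bar its SD, and the dotted line the dim filter at 20.4. The groups do not overlap for the 5 keratins, Dsc3 and Perp, while Krt7 and Krt19 are highest on FORKO replicate 1 and Krt79 is lowest there among the FORKO arrays.

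Krt8, the type II keratin of simple epithelia, read 266, 278 and 211 in WT and 523, 530 and 536 in FORKO. On this probe set the FORKO arrays were nearly level and all lay above the WT arrays. The means were 252 ± 36.0 and 530 ± 6.12, a log2 change of 1.07 ± 0.16 (SE; limma adjusted p = 0.0155). The other Krt8 probe sets rose too, by 0.94 (limma adjusted p = 0.0180) and 1.36 (0.0103), though both are of a kind (_x_at) that may also bind related transcripts. In FORKO the probe set with the change of 0.94 read 431, 453 and 404. That with the change of 1.36 read 518, 388 and 500, highest on replicate 1. On all 3 probe sets the groups did not overlap.

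Krt18, the type I chain that pairs with KRT8, read 153, 107 and 129 in WT and 382, 260 and 251 in FORKO. All FORKO arrays were above all WT arrays, with replicate 1 the highest. The means were 130 ± 23.1 and 298 ± 72.9, a rise of 1.15 ± 0.22 on the log2 scale (SE; limma adjusted p = 0.0321). Without FORKO replicate 1 the rise was 0.96 (limma adjusted p = 0.0164). Krt8 and Krt18 are next to each other on chromosome 15.

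Krt79, a type II keratin known from the ducts of hair follicles and sebaceous glands, had the largest change among the keratins. It read 25.7, 56.8 and 30.9 in WT and 157, 345 and 324 in FORKO, so that its WT arrays stood near the dim filter. The means were 37.8 ± 16.7 and 275 ± 103, 7.28-fold apart, with a log2 change of 2.68 ± 0.34 (SE; limma adjusted p = 0.00893). Among all genes tested its change was number 22 from the top. Krt79 was lowest on FORKO replicate 1 among the FORKO arrays, as the brightest Krt8 probe set was by a far smaller margin. Without that array the change of Krt79 was 3.03 (limma adjusted p = 4.24e-05).

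Krt7 and Krt19, type II and type I keratins of ducts and of the mesothelium-like ovarian surface, did not pass. Krt7 read 44.3, 43.6 and 42.7 in WT and 154, 53.7 and 69.5 in FORKO. Krt19 read 136, 94.4 and 108 in WT and 440, 137 and 181 in FORKO. For both genes the groups did not overlap, but the lowest FORKO array lay close to the highest WT array and replicate 1 lay far above the rest. The log2 changes were 0.86 (95% interval 0.13 to 1.59; limma adjusted p = 0.260) for Krt7 and 0.96 (0.14 to 1.78; limma adjusted p = 0.263) for Krt19. Without FORKO replicate 1 they were 0.44 (limma adjusted p = 0.363) and 0.48 (0.303).

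Dsc3, the desmosomal cadherin known from stratified epithelia, rose from near background. Its WT arrays read 5.08, 5.62 and 17.7, all below the dim filter, and its FORKO arrays read 190, 73.0 and 57.9. That is a rise of 2.80 ± 0.44 on the log2 scale (SE; limma adjusted p = 0.0166), number 19 from the top among all genes tested. Without FORKO replicate 1 it was 2.31 (limma adjusted p = 0.00275). A second Dsc3 probe set read 2.10 to 8.45 over all 6 arrays, under the filter and with overlapping groups, so the rise rests on a single probe set. Detection calls were not used here, and how far the WT values exceed background is not known.

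Perp, a tetraspan protein of desmosomes known as a target of p53 and p63, read 101, 60.3 and 80.1 in WT and 284, 163 and 127 in FORKO. The groups did not overlap, and replicate 1 was again the highest. The log2 change was 1.14 (95% interval 0.47 to 1.80), which did not pass limma's test (adjusted p = 0.104), and without FORKO replicate 1 it was 0.82 (limma adjusted p = 0.0815). With the replicate number as a block it passed (replicate block, limma adjusted p = 0.0317), and 5 of the 10 genes rose in that fit, against 2.4% of all genes.

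The remaining desmosomal genes had overlapping groups. Dsp, desmoplakin, which anchors keratin filaments in the desmosomes of epithelia, read 320, 253 and 310 in WT and 446, 305 and 433 in FORKO. FORKO replicate 2 lay inside the WT range, and the log2 change was 0.40 (95% interval -0.03 to 0.84; limma adjusted p = 0.381; 0.31 without FORKO replicate 1). Dsg2, the desmoglein found in simple epithelia, read 56.0, 55.9 and 73.0 in WT and 88.6, 73.0 and 73.9 in FORKO, with a log2 change of 0.33 (-0.10 to 0.76; limma adjusted p = 0.487; 0.24 without FORKO replicate 1). Its second tested probe set had a change of 0.00, and 4 further Dsg2 probe sets lay below the filter. Dsc2, the desmocollin found in simple epithelia, read 13.4, 54.6 and 27.8 in WT and 44.9, 19.8 and 35.1 in FORKO, with FORKO replicate 2 below the WT mean. Its change was 0.15 (95% interval -0.78 to 1.08; limma adjusted p = 0.912), and it was -0.26 without WT replicate 1 and -0.07 without FORKO replicate 1. The difference between Dsc3 and Dsc2 or between other members was not tested.

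**Figure D2:**
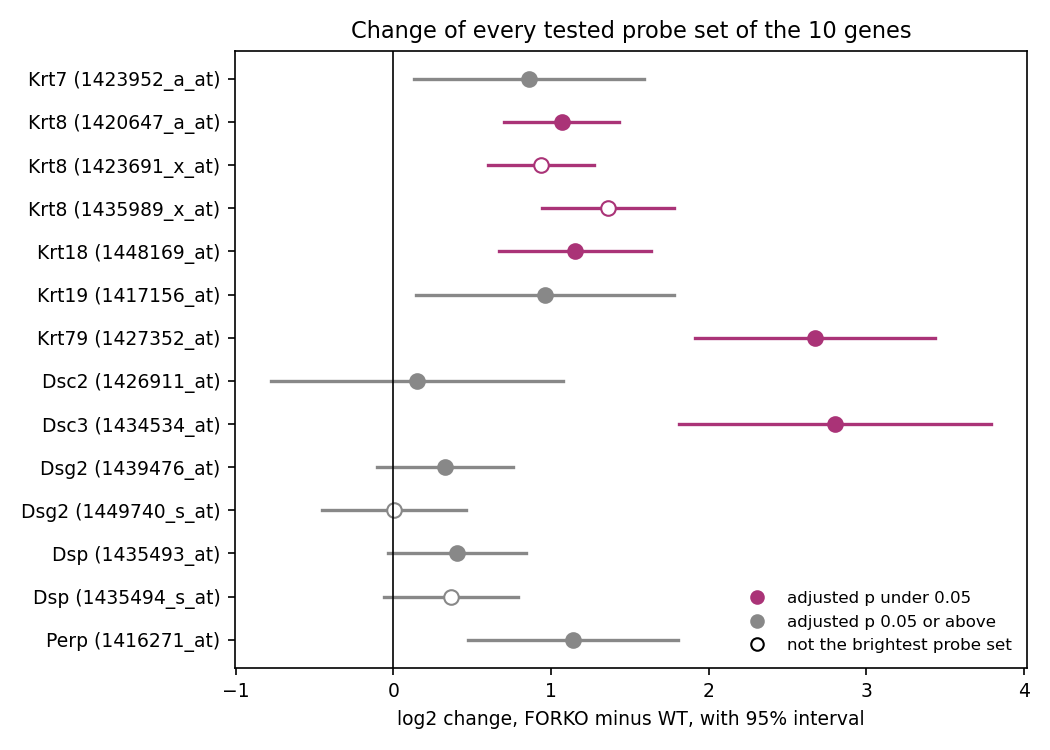
Log2 change (FORKO minus WT) with its 95% interval for the 14 tested probe sets of the 10 genes. Filled points are the brightest probe set of a gene and purple marks an adjusted p under 0.05; the 3 Krt8 probe sets lie between 0.94 and 1.36, and Krt79 and Dsc3 lie at 2.68 and 2.80.

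The size of the rises varied between the FORKO arrays. By the probe set that stands for each gene, 8 of the 10 read highest on FORKO replicate 1, where 37.0% of all genes tested did. The exceptions were Krt8, of which another probe set was highest there, and Krt79. The median log2 difference of the 10 genes from the WT mean was 1.61 on replicate 1, 0.63 on replicate 2 and 0.66 on replicate 3. Without replicate 1, the genes that rose were still Krt8, Krt18, Krt79 and Dsc3, 4 of 10, where 3.19% of all genes rose. Several marker lists were also highest on that array.

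Of 11 markers of the surface epithelium and mesothelium that are not among the 10 genes, all were tested, but Msln, Lrrn4 and Muc16 had WT means below the dim filter and passed it through the FORKO arrays, so they are left out of the counts. Of the other 8, 7 had a positive change, where 47.4% of all genes tested had one, and 4 were higher at an unadjusted p under 0.05. The median change of these 8 was 0.65 (0.53 without FORKO replicate 1). Summed, the 11 read 788 to 885 in WT, 1796 on FORKO replicate 1 and 985 and 1115 on the others. Gpm6a, a membrane glycoprotein gene, rose and was the only one to do so. Its log2 change was 1.22 (limma adjusted p = 0.0496), and 0.96 without FORKO replicate 1 (0.0247). It passed in 2 of 6 fits that left out an array. Upk3b, a uroplakin of mesothelium, read 91.2, 135 and 125 in WT and 416, 185 and 218 in FORKO, without overlap. Its log2 change was 1.11 (limma adjusted p = 0.104), and 0.77 without FORKO replicate 1 (0.0699). No marker of this list was at 0 on any array. The part of these cells in the keratin values was not tested.

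The summed signal of markers known from Sertoli cells of the testis had the same order of FORKO arrays. That sum was 268 to 386 in WT, 4111 on FORKO replicate 1 and 986 and 1995 on replicates 2 and 3. Single markers differed in order. In FORKO, Cldn11 read 538, 127 and 106, while Sox9 (14.9, 16.8 and 22.4) and Gata1 (18.6, 31.5 and 36.6) were lowest on replicate 1. Sox9 was not tested, and Gata1 had a log2 change of -0.12 (limma adjusted p = 0.888). Of 6 such markers 4 were tested, 2 rose and 0 fell, with a median change of 1.89 (1.39 without FORKO replicate 1). Ptgds, a prostaglandin D synthase, read 30.7, 25.5 and 17.5 in WT and 2465, 304 and 1123 in FORKO (log2 change 5.00, limma adjusted p = 0.00623). Defb19, a defensin, read 249, 166 and 269 in WT and 1059, 499 and 697 in FORKO (log2 change 1.66, limma adjusted p = 0.0220). Both genes were above WT on all FORKO arrays, and Ptgds passed in 6 and Defb19 in 2 of 6 fits that left out an array. Without FORKO replicate 1 their changes were 4.31 for Ptgds (limma adjusted p = 6.1e-05) and 1.38 for Defb19 (0.00431). Macrophage markers summed to 1167 to 1606 in WT and to 2509, 1292 and 1792 on the FORKO arrays. None of their 6 genes passed (limma; 2 higher at an unadjusted p under 0.05), and the median change of 0.31 was 0.05 without FORKO replicate 1. Neither list had a marker at 0 on any array, Dmrt1 of the Sertoli list lay below the filter level throughout, and the part of either list in the values of the 10 genes was not tested.

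Markers of other epithelia were examined in the same way. Of 9 markers of keratinised squamous epithelium, 3 passed the filter and none rose or fell (limma, 0 also at an unadjusted p under 0.05), their summed signal was 196 to 215 in WT and 190 to 232 in FORKO, and Krt14, Krt1, Ivl, Sprr1a and Sprr1b lay below the filter level on every array. Of 9 markers of the oviduct and of ciliated epithelium, 4 were tested and none passed (limma; 2 higher at an unadjusted p under 0.05). Of these 2, Wfdc2 passed the filter only through the FORKO arrays. The sum was 387 to 501 in WT and 657 to 905 in FORKO. It was highest on FORKO replicate 1, where Epcam alone read 627. Leaving out Wfdc2, the median change of the 3 other tested markers was 0.50, and -0.04 without FORKO replicate 1. Foxj1, Pax8, Dnah5 and Tekt1 lay below the filter level throughout. No marker of the squamous or the oviduct list was at 0 on any array. Ovgp1, the oviductal glycoprotein, read 32.8, 12.7 and 34.4 in WT and 27.2, 247 and 184 in FORKO. Krt79 shared this order of the FORKO arrays, but so did Cdh2 and the granulosa markers Inhba, Inhbb, Fst and Hsd17b1. The log2 change of Ovgp1 was 1.93 (limma adjusted p = 0.210), and without FORKO replicate 1 it rose (2.84, limma adjusted p = 0.000224). Wfdc2, a secreted protein of oviduct and other ducts, read 1.56, 12.5 and 13.7 in WT and 52.1, 45.9 and 34.01 in FORKO and so lay below the filter on every WT array. Whether RNA of oviduct contributed to any of the 10 genes was not tested.

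Oocyte markers, which an ovary should hold, were lower in FORKO. Of 8 tested, 0 rose and 3 fell (6 lower and 0 higher at an unadjusted p under 0.05), with a median change of -0.94 (-0.77 without FORKO replicate 1). Oosp1, an oocyte-secreted protein, read 173, 147 and 163 in WT and 42.8, 55.0 and 60.7 in FORKO (log2 change -1.52, limma adjusted p = 0.00799). Zp2, of the zona pellucida, and Zar1, a maternal effect gene, also fell, with log2 changes of -1.29 (limma adjusted p = 0.0112) and -1.05 (0.0367). Zp2 passed in 4 and Zar1 in 1 of 6 fits that left out an array, Zar1 only without FORKO replicate 1. The list summed to 1084 to 1292 in WT and 420 to 673 in FORKO, no marker was at 0 on any array, and its part in the values of the 10 genes was not tested.

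**Figure D3:**
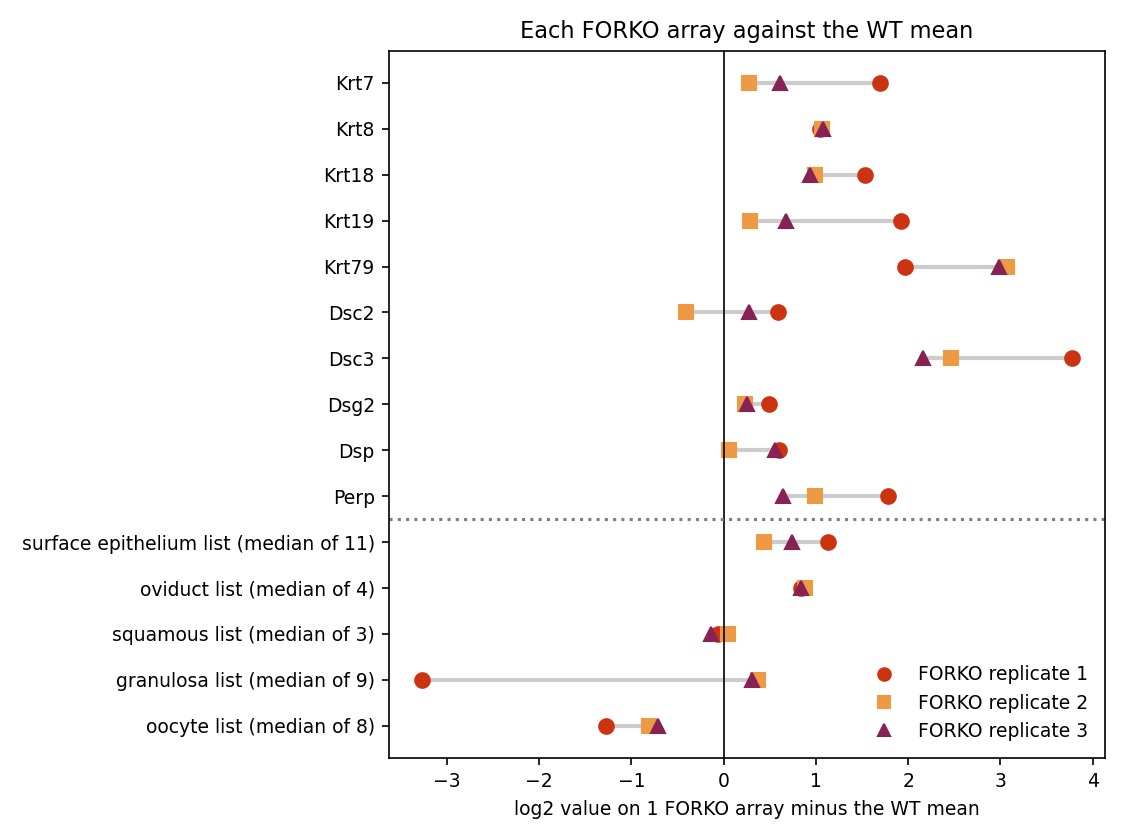
Log2 value on each FORKO array minus the WT mean, for the 10 genes and for the median of 5 marker lists (number of tested markers in brackets). By its brightest probe set, Krt8 is level over the 3 arrays. Of the 10 genes, 8 are highest on replicate 1, and Krt79 is lowest there. The median of the granulosa markers is low on that array alone (-3.27 against 0.37 and 0.30). Single granulosa markers differ, and Fshr, Nr5a2 and Inha are below the WT mean on all 3 arrays.

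The rest of the keratin family was dim in these ovaries. Of 39 further keratin genes on the array, 36 lay below the filter and 30 of these below its level on each single array. The 3 tested ones, Krt10, Krt42 and Krt81, did not pass (limma; 1 higher at an unadjusted p under 0.05). Krt42 read 51.9, 36.3 and 59.9 in WT and 61.4, 83.2 and 84.1 in FORKO (log2 change 0.58, limma adjusted p = 0.273). Its probe set is of the _x_at kind, which may also bind related transcripts. Krt5 and Krt14, the keratins of basal stratified cells, read at most 25.9 and 16.2 on any array.

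Among the other genes of desmosomes and their plaques, 15 were on the array, 8 were tested, 1 rose and 7 did not pass, with a median change of 0.20. The riser was Pkp2, plakophilin 2, the plaque protein of simple epithelia and heart, which read 127, 97.4 and 162 in WT and 353, 361 and 525 in FORKO. It rose by 1.64 ± 0.23 on the log2 scale (SE; limma adjusted p = 0.0112), and FORKO replicate 1 was the lowest of the FORKO arrays. It passed in 4 of 6 fits that left out an array, the others being those without WT replicates 1 and 2. Pkp4 read 1074, 876 and 771 in WT and 804, 616 and 625 in FORKO and did not pass. Jup, plakoglobin, read 4.39 to 21.2 over the 6 arrays and was not tested. Macf1, a plakin that links microtubules and actin, had a change of 0.09 and did not pass.

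Among genes of the adherens junction, the other cadherin junction of epithelia, changes went both ways. Of 9 tested, none passed (limma, with 3 higher and 0 lower at an unadjusted p under 0.05). A positive change was seen in 4 of the 9, where 47.4% of all genes tested had one, and the median was -0.02. Cdh2, N-cadherin of granulosa cells, read 391, 347 and 268 in WT and 361, 829 and 653 in FORKO, and Cdh1, E-cadherin of epithelia, read 41.1, 28.4 and 34.8 in WT and 102, 42.4 and 54.5 in FORKO. The FORKO arrays lay above WT for Cdh1 but not for Cdh2. Their log2 changes were 0.80 for Cdh2 and 0.76 for Cdh1 (limma adjusted p = 0.231 and 0.279). Without FORKO replicate 1 Cdh2 rose (1.14, limma adjusted p = 0.00606), while Cdh1 had a change of 0.42 (0.448). The 2 tested hemidesmosome genes, Itga6 and Cd151, had changes of -0.08 and 0.21 and did not pass (0 at an unadjusted p under 0.05). Of 6 other intermediate filament genes none passed (limma; 2 lower at an unadjusted p under 0.05). Synm, synemin of muscle filaments, read 221, 443 and 159 in WT and 96.1, 73.0 and 88.2 in FORKO (log2 change -1.49, limma adjusted p = 0.0557), without overlap. It fell in the fit with the replicate block (limma adjusted p = 0.0498) and in that without FORKO replicate 1 (0.0154). Lmnb2, a nuclear lamin, had a change of -0.70 (limma adjusted p = 0.564).

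Among 9 tested regulators of epithelial genes, 1 rose, 1 fell and 7 did not pass, with a median change of 0.03. Ehf and Twist1, both among the 7, passed the filter only through the FORKO arrays. Leaving both out, the median change of the other tested regulators was -0.14 (-0.01 without FORKO replicate 1). Klf4, a zinc finger factor known for epithelial differentiation, read 112, 53.2 and 91.0 in WT and 431, 242 and 280 in FORKO (log2 change 1.84, limma adjusted p = 0.0169, and 0.00399 without FORKO replicate 1). Zeb2, known as a repressor of epithelial genes, read 804, 745 and 547 in WT and 385, 306 and 343 in FORKO (log2 change -0.99, limma adjusted p = 0.0321). Neither gene's groups overlapped. Zeb1 and Snai2, repressors known to bind the same kind of E-box as Zeb2, did not pass, with log2 changes of 0.45 (limma adjusted p = 0.495) and -0.32 (0.730). Klf4 passed in 3 and Zeb2 in 2 of 6 fits that left out an array, and binding was not measured.

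The calls of the 10 genes depended on single arrays. Krt79 passed in each of the 6 fits that left out an array (limma adjusted p = 4.24e-05 to 0.0488). Dsc3 passed in 4 of them, Krt8 in 2 and Krt18 in 1. The number of the 10 genes that rose was 1 without WT replicate 1, 1 without WT replicate 2, 2 without WT replicate 3, 2 without FORKO replicate 3, 4 without FORKO replicate 1 and 3 without FORKO replicate 2. The log2 changes of Krt8, Krt18 and Krt79 moved little in these fits, from 0.95 to 1.14, 0.96 to 1.28 and 2.47 to 3.03. For each gene the exact two-sided permutation p was 0.1 where the groups did not overlap, the smallest that 3 against 3 arrays can give.

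**Figure D4:**
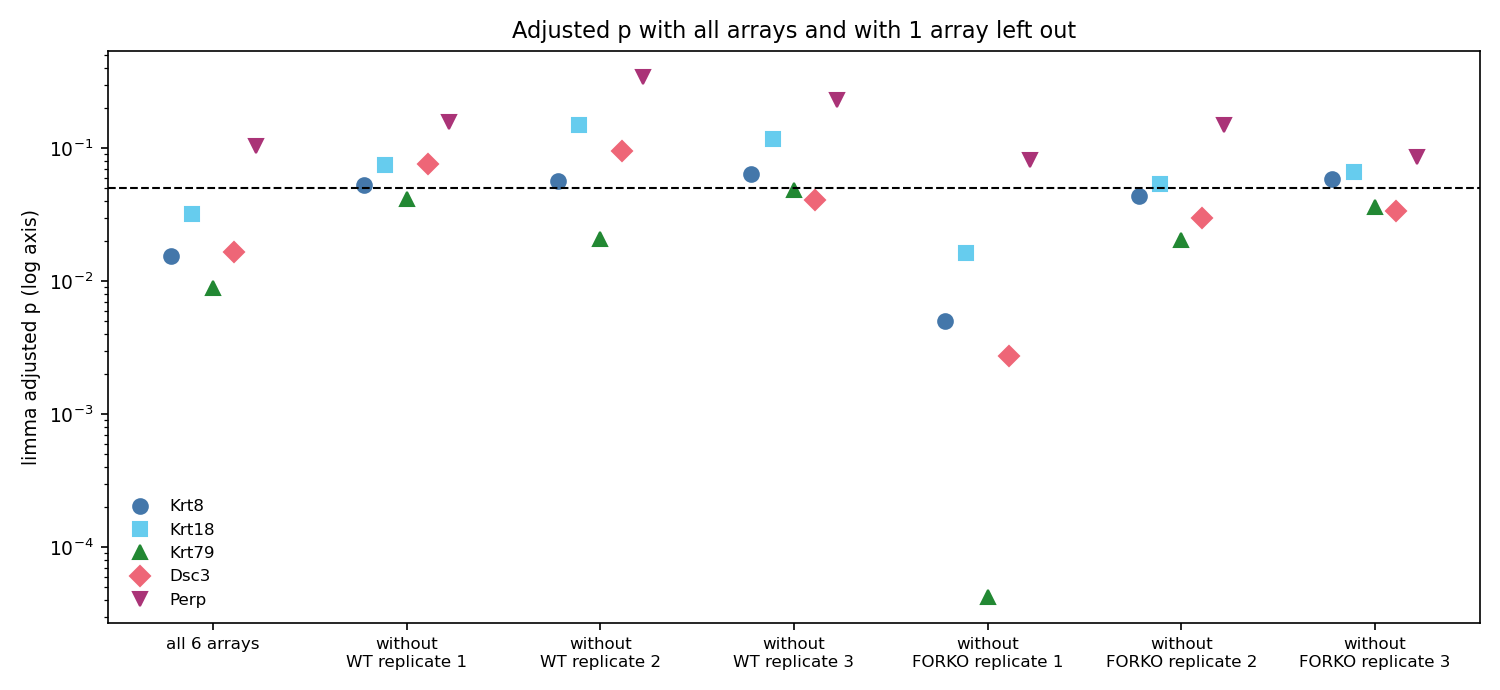
limma adjusted p (log axis) of Krt8, Krt18, Krt79, Dsc3 and Perp with all 6 arrays and with 1 array left out; the dashed line is 0.05. Krt79 is under the line in every fit, Krt8 lies just above it in 4 fits (0.0532 to 0.0642), and Perp is above it throughout.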

How the data were processed

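Whole-ovary RNA of 3 WT and 3 FORKO samples was measured on 1 Affymetrix array each. The authors deposited 1 signal intensity per probe set on a linear scale, made with MAS5 per the submitters' processing notes; the sources used here name no version or scaling target, and detection calls were not used. The table holds 45101 probe sets, and the platform annotation gave 1 gene symbol for 34958, several for 932 and listed none for 9211.

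A trimmed mean, dropping the top and bottom 2% of signals, was set equal on all arrays (factors 0.895 to 1.09). The 64 control probe sets were left out, log2(signal + 5.73, the pooled 25th percentile) was taken, and probe sets with a mean scaled signal of at least 20.4, the median of all means, were kept. For the 22506 kept, limma 3.58.1 (R 4.3.3; lmFit, eBayes with an intensity trend, two-sided, Benjamini-Hochberg adjustment at 0.05) compared the groups, by a script also tested on simulated data. Figures were drawn with matplotlib 3.10.9. The number of arrays limits the precision.

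Groups and replicate numbers come from the sample titles. WT and FORKO arrays of 1 number deviated together from the means of their groups (r = 0.195, 0.134 and 0.358, all over 0.1), so the numbers were taken to pair samples, on the basis of the data alone. A fit with the number as a block was an alternative, beside other scalings, pseudocounts, dim filters, variance models, probe set choices and each array left out.

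The 10 genes, the 15 lists and the motifs were chosen with earlier results of these data known. Of each list described gene by gene, the rule named at most 4 genes that passed, by size of change, and the 2 largest changes if none did; other genes, such as Upk3b, Msln, Zeb1, Snai2, Pkp4, Macf1, Jup, Krt5 and Krt14, were named after their values were seen.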

Additional observations from a re-analysis of the deposited data

How the results depend on the processing

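All 372 probe sets that passed are set against 589 with scaling to the bacterial spikes, 221 with no dim filter, 191 with the strict dim filter, 691 with the replicate block, and 62 to 864 with 1 array left out. Scaling to the spikes shifted the median log2 change over genes by 0.17 and the share of higher calls from 64.0% to 84.0%, and scaling to the same median moved that share to 50.6%. The 10 genes kept a positive change under all 4 other scalings. The number that rose was 4 with all arrays, 1 to 4 with 1 array left out and 3 to 5 under the other alternatives. Krt18 did not pass with the same median (limma adjusted p = 0.0552) or without an intensity trend (0.0529), and Perp passed with spike scaling (0.0403) and with the replicate block (0.0317), which changed no other call of the 10 genes. Krt79 passed under all 18 alternatives. Dsc2, which passed nowhere, ranged from -0.26 to 0.57 with 1 array left out and reversed without WT replicate 1 (-0.26) and without FORKO replicate 1 (-0.07). The strict dim filter kept 6 of the 10 genes, leaving out Krt7, Dsc2, Dsc3 and Dsg2. Where a call changed, the cause was not tested. Dim signals limit Dsc2, Dsc3 and Krt79, whose WT arrays lay below or near the dim filter.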

Other observations

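Genes that neighbour the 10 genes on their chromosomes were compared as a description. Taking 3 protein-coding genes on each side of every member in the GRCm38.p6 gene table gave 43 other genes, of which 35 were on the array and 15 were tested. None of these passed limma's test (3 had an unadjusted p under 0.05), 8 had a positive and 7 a negative change. Of all genes tested, 47.4% had a positive change. Eif4b, the translation factor gene beside Krt18, had a log2 change of -0.00187, and Krt78, between Krt79 and Krt8, was too dim to test. In the desmosomal cadherin cluster, Dsc3 lies between Cdh2 (0.80, limma adjusted p = 0.231) and Dsc2, and Dsc1, beyond Dsc2, was below the filter on every array.

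The genes whose log2 values, centred on their WT means, lay nearest to those of Krt8 over the 6 arrays were Lpar1, a receptor for lysophosphatidic acid, at a root mean square difference of 0.13, AI467606 at 0.15 and Hsd17b11, a 17-beta hydroxysteroid dehydrogenase, at 0.16. Lpar1 read 103, 91.6 and 93.0 in WT and 213, 195 and 206 in FORKO. Nearest to Dsp were Tsacc (0.07), Nxpe3 (0.07) and Inpp1, an inositol phosphatase (0.08). With 11199 genes to choose from, such nearness over 6 arrays is a description only.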
